A study of Mus musculus with 6 samples.

Results

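The genes described here are the cyclins, cyclin-dependent kinases (CDKs) and regulators of the cell cycle in RAW 264.7 cells, a mouse macrophage line. They were chosen by name: probes whose only platform symbol begins with Ccn and a letter from a to l, Cdk, E2f, Aurk, Plk and a digit, Bub, or Cdc and a digit, without Cdc42 and its relatives. This gave 131 of the 16281 probes in the table, for 73 of its 10698 named genes. Of these genes, 71 had a probe with a value on all 6 arrays and were tested. The other 2, E2f3 and Cdk3, had a value on 5 arrays.

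The study set cells given lipopolysaccharide (LPS, 100 ng/ml), the endotoxin of Gram-negative bacteria, plus LPS-binding protein (LBP, 100 pM) for 2 h against untreated cells cultured for the same time. Each of the 6 two-colour arrays carried treated and untreated RNA together. The treated RNA was in Cy5 on 3 arrays and in Cy3 on the 3 dye-swapped ones, and each orientation was numbered as sets 1 to 3. The labels name no separate cultures, so p-values measure only the spread between sets, which may be technical, and neither agent was given alone in the arrays used here.

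Values are log2 ratios of treated over untreated RNA, turned so that a positive value means more transcript after treatment. A gene's value is the mean of its complete probes, and the 2 arrays of a set were averaged. Means are given ± SD of the 3 sets. "Rose" and "fell" are used for an adjusted p under 0.05 by limma with Benjamini-Hochberg adjustment over 11231 features. A ratio holds no level, so the identity of the cells could not be checked on marker levels. Among 11 macrophage marker genes tested, 2 rose (18.2%, against 7.35% of all features) and 3 fell (27.3%, against 7.45%). Their means ran from -0.47 to 0.83. Of 14 markers of lymphocytes, fibroblasts, endothelium and epithelium, 0 passed limma's threshold and 3, all positive, had an unadjusted p under 0.05. At that p, 1492 of the 11231 features were higher and 1658 lower. The means of these 14 markers ran from -0.20 to 0.22. All 10 LPS-induced genes used to check the sign of the ratios rose and were positive on every array.

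Cyclins bind CDKs and switch them on at set points of the cycle. D-type and E-type cyclins act in G1 and at the entry into S phase, where E2F factors drive the genes of DNA replication. Cyclins A and B act with CDK1 towards mitosis, which Aurora and Polo-like kinases and the Bub checkpoint proteins then order. Inhibitors of the CIP/KIP family (Cdkn1a to Cdkn1c) bind cyclin-CDK complexes, and those of the INK4 family (Cdkn2a to Cdkn2d) bind CDK4 and CDK6. Macrophages respond to LPS with strong transcription of defence genes, and LPS is known to slow the growth of macrophage lines.

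Promoter sequences of 5 of these genes are shown because their transcripts changed most within their group. Cdkn1a rose most of all tested members, Cdkn2d fell most, Cdc6 fell most among G1/S genes, and Ccnl1 and Plk2 rose and share a motif. They were chosen after the values and matches were seen. Each is the 250 bases before a RefSeq start site (GRCm38.p6), written 5′ to 3′ on the gene's strand. Cdkn1a has 2 start windows, of which the second is given. Capitals mark matches, on either strand, to the E2F motif (TTTCCCGC, TTTGGCGC, TTTCCCGG or TTTGGCGG), the cyclic AMP response element CRE (TGACGTCA), the cell-cycle homology region CHR (TTTGAA), the CCAAT box (CCAAT), the GC box (GGGCGG) or the NF-κB consensus. No matches overlap in these 5 sequences.

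Cdkn1a, chr17:29093519-29093768, plus strand: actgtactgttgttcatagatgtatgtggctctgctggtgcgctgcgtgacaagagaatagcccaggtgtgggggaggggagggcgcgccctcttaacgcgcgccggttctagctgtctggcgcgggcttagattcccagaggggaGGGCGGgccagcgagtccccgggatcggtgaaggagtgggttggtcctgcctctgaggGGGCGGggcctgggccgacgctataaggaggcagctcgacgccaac

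Cdkn2d, chr9:21291210-21291459, minus strand: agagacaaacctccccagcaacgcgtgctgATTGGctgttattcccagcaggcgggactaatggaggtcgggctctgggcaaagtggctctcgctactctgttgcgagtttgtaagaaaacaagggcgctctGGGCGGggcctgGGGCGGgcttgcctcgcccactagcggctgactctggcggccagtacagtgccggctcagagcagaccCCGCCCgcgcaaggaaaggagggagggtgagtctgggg

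Cdc6, chr11:98907901-98908150, plus strand: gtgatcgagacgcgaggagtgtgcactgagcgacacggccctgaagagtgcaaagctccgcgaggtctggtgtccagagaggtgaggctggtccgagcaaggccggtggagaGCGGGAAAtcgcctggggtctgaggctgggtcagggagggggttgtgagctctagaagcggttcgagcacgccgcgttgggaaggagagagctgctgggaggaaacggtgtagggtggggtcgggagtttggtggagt

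Ccnl1, chr3:65958250-65958499, minus strand: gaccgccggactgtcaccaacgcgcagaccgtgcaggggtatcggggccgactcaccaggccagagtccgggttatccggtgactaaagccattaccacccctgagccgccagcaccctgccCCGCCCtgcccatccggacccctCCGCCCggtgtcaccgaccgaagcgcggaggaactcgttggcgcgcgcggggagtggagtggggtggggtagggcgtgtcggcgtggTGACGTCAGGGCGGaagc

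Plk2, chr13:110394794-110395043, plus strand: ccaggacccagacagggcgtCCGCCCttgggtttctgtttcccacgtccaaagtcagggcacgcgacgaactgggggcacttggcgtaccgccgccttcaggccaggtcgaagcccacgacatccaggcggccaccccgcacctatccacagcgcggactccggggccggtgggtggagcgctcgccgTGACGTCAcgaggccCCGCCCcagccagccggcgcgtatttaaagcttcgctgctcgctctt

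The Cdc6 window holds 1 E2F match, between 131 and 138 bases before the start. The Cdkn1a window shown holds 2 GC boxes, and Cdkn2d holds 3 GC boxes and 1 CCAAT box. A CRE lies between 11 and 18 bases before the start of Ccnl1 and between 55 and 62 bases before that of Plk2. RefSeq windows (300 bases, 50 of them after the start) were found for 60 of the 71 tested members. An E2F match stood in 5 of their 69 windows (7.25%), against 3.32% of all 32851 windows. For the CRE it was 3 (4.35%) against 1.79%, for the CHR 18 (26.1%) against 17.9%, for the CCAAT box 36 (52.2%) against 37.4% and for the GC box 52 (75.4%) against 35.7%. The NF-κB consensus stood in 9 member windows (13%), against 8.46% of all. The Cdkn2d window was among these, though no such match lies wholly within the 250 bases shown. Besides Cdc6, the members with an E2F match were Cdc25a, Cdk2, Cdkn2a and Cdc37l1, none of which passed the test of expression. Besides Ccnl1 and Plk2, the member with a CRE was Cdkn2b, which did not pass either (mean -0.06). A match is a string of letters, not a bound site.

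After 2 h of LPS and LBP, 6 of the 71 tested members rose and 14 fell. The share that rose, 8.45%, lay near the 7.35% of all features that rose. The share that fell was 19.7%, against 7.45% of all features. The remaining 51 did not pass. The changes were small: 3 of the 20 exceeded 1.5-fold, namely Cdkn1a, Cdkn2d and Cdc6. The median over all 71 was 0.00, as it was over all features (-0.00). The 6 arrays were of 1 sign for 15 of the 20. The counts lean on set 3: without it 3 members rose and 3 fell, when 3.13% of all features rose and 1.88% fell. The 14 members lost then had adjusted p from 0.0578 to 0.246. They were Bub1b, Ccna2, Ccne1, Ccne2, Ccnf, Ccng2, Cdc25b, Cdc7, Cdk6, Cdkn1b, Cdkn2c, E2f6, Plk2 and Plk3. Without set 1, Bub1b, Ccna2, Ccnf, Cdc25b and Cdk6 no longer passed (adjusted p from 0.0529 to 0.0882), and without set 2 neither did Bub1b, Ccnf and Cdc25b (0.0526 to 0.105). With exact zeros kept as ratios, 12 did not pass (adjusted p from 0.0506 to 0.34): Bub1b, Ccne1, Ccne2, Ccnf, Cdc25b, Cdc7, Cdk18, Cdk6, Cdkn1b, Cdkn2c, Plk2 and Plk3. In that setting Cdk18 stood at 0.18 and Ccne2 at -0.19. Cdkn1a, Ccnl1, Cdc6 and Cdkn2d passed in all 14 alternative settings.

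**Figure D1:**
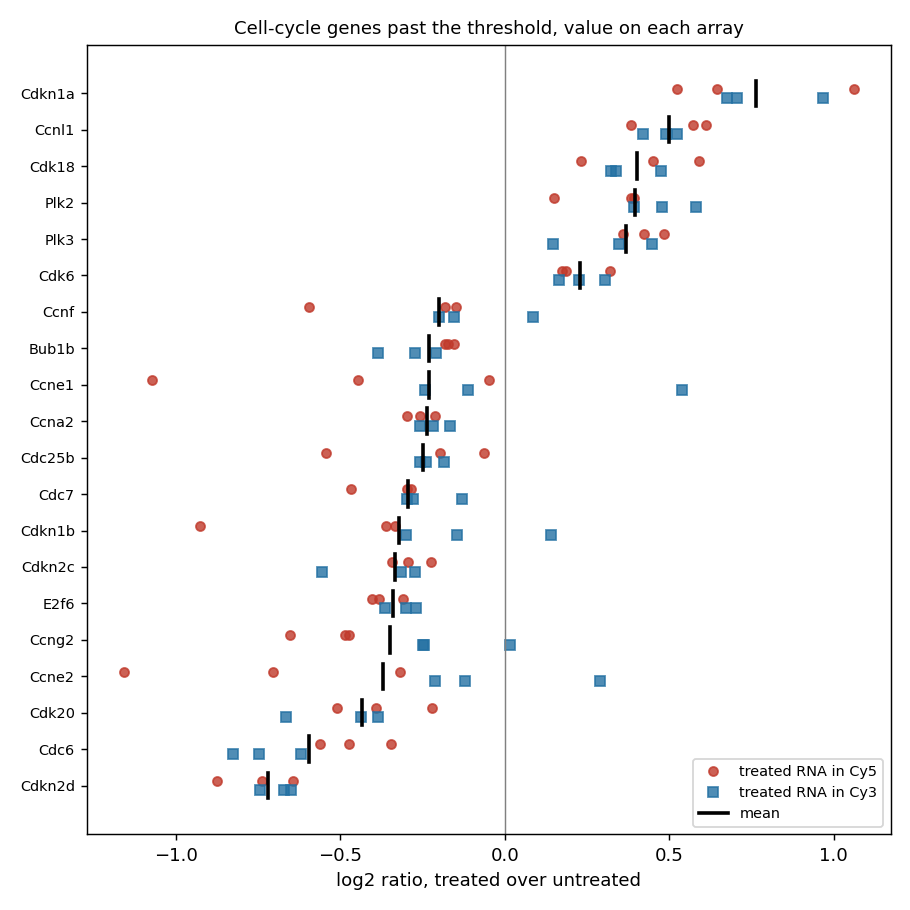
Log2 ratio of treated over untreated RNA (x axis) of the 20 members past the threshold, 1 row per gene, on 3 arrays with the treated RNA in Cy5 (red circles) and 3 with it in Cy3 (blue squares), with the mean as a black bar. Cdkn1a and Cdkn2d lie at the ends, and the arrays of Ccne1, Ccne2, Cdkn1b, Ccnf and Ccng2 fall on both sides of 0.

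Among the G1/S genes, 5 of 15 tested fell, 1 rose and 9 did not pass, with a median of -0.12. The list named 21 genes, and 16 are members. E2f2, E2f4, E2f7, E2f8 and Cdc34 were not analysed here. Cdc6, which loads the replicative helicase onto origins, fell most. Its values were -0.56, -0.47 and -0.35 on the arrays with treated RNA in Cy5 (sets 1 to 3) and -0.83, -0.75 and -0.62 on the swapped ones. All 6 were negative, and the swapped arrays were lower than their partners. The mean was -0.60 ± 0.11, a 1.51-fold fall (adjusted p = 0.00118). Its 2 probes, one of the pair at -0.60 and the other at -0.59, read alike.

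Cdc7, the kinase that fires origins, stood at -0.29, -0.30 and -0.47 with treated RNA in Cy5 and at -0.13, -0.28 and -0.30 with it in Cy3. It was thus negative on every array, with a mean of -0.29 ± 0.09 (adjusted p = 0.0143). E2f6, a repressor of the E2F family, was the most even of the G1/S genes that fell. It read -0.38, -0.40 and -0.31 in Cy5 and -0.36, -0.30 and -0.27 in Cy3, for a mean of -0.34 ± 0.04 (1.26-fold, adjusted p = 0.00502). E2f1, an activator of the family, stood at -0.19 ± 0.11 and was negative on 6 of 6 arrays (adjusted p = 0.0782). E2f5, a repressor, was positive with treated RNA in Cy5 (mean 0.31) and negative with it in Cy3 (-0.13). E2f3, an activator with a single probe, gave 0.80, 0.19 and -0.10 in Cy5 and 0.17 and 0.12 in the swapped arrays of sets 2 and 3.

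Cyclins E1 and E2, the partners of CDK2 at the entry into S phase, passed with low means that hid widely spread arrays. Ccne1 read -0.05, -1.07 and -0.45 with treated RNA in Cy5 and -0.24, 0.54 and -0.11 with it in Cy3. Ccne2 read -0.32, -1.16 and -0.70, and then -0.12, 0.29 and -0.21. For both genes set 2 held the lowest and the highest array. The set means were close, so that Ccne1 had -0.23 ± 0.07 (adjusted p = 0.0289) and Ccne2 -0.37 ± 0.13 (adjusted p = 0.0107). With single arrays and a dye orientation term, neither passed (adjusted p = 0.447 and 0.0927). With the treated RNA in Cy3 alone, Ccne1 stood at 0.06 and Ccne2 at -0.02.

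The cyclin D genes, which bind CDK4 and CDK6 in G1, differed in sign but did not pass. Ccnd2 stood at 0.17 ± 0.09 (95% interval, unadjusted for the number of features, 0.05 to 0.30; adjusted p = 0.0831), positive on every array. Ccnd1 had -0.11 ± 0.05 (-0.22 to 0.00) and Ccnd3 -0.12 ± 0.07 (-0.24 to 0.00), each negative on every array. A further Ccnd1 probe, with a value on 4 arrays, ran from -0.60 to 0.24 and was not used. Cdk6 was the G1/S gene that rose. It read 0.17, 0.19 and 0.32 with treated RNA in Cy5 and 0.22, 0.17 and 0.30 with it in Cy3. All 6 values were positive, at a mean of 0.23 ± 0.07 (adjusted p = 0.0293). A second Cdk6 probe, with a value on 4 arrays, ran from -0.40 to 0.66 and was not used. With probes on at least 4 arrays, which adds it, Cdk6 stood at 0.18 and did not pass (adjusted p = 0.151), nor did it with arrays scaled to the same spread (0.0548). Cdk4, the other partner of the D cyclins, stood at 0.02 ± 0.10. Cdk2 had -0.21 ± 0.11 (adjusted p = 0.059), negative on 5 of 6 arrays. Cdc25a, a phosphatase that activates CDK2, stood at 0.08 ± 0.07 and the replication factor gene Cdc45 at 0.07 ± 0.06.

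Among the G2/M genes, 4 of 14 tested fell, 0 rose and 10 did not pass by limma. None of the positive ones had an unadjusted p under 0.05, while 7 negative ones had. At that p, 1492 of all 11231 features were higher and 1658 lower. The median of the G2/M genes was -0.10. The list named 20 genes, and Ccnb1, Cdc14a, Cdc14b, Plk1, Cdc23 and Cdc27 were not analysed here. Ccna2, the cyclin of S phase and G2, read -0.30, -0.26 and -0.21 with treated RNA in Cy5 and -0.22, -0.26 and -0.17 with it in Cy3. All arrays lay close together below 0, at a mean of -0.24 ± 0.04 (1.18-fold, adjusted p = 0.0192). Bub1b, which encodes the checkpoint protein BubR1, read -0.15, -0.18 and -0.17 in Cy5 and -0.27, -0.39 and -0.21 in Cy3. It was negative throughout, at -0.23 ± 0.05 (adjusted p = 0.0225). Cdc25b, a phosphatase that starts the activation of CDK1, read -0.06, -0.54 and -0.20 in Cy5 and -0.24, -0.18 and -0.26 in Cy3. As the mean of 2 probes, it was uneven but negative on each array, at -0.25 ± 0.11 (adjusted p = 0.0338). Neither probe was so alone: 1 ran from -1.03 to 0.04 and the other from -0.40 to 0.03. Ccnf, the F-box cyclin, read -0.15, -0.59 and -0.18 in Cy5 and -0.20, 0.08 and -0.15 in Cy3. Both its extremes lay in set 2, and the mean was -0.20 ± 0.05 (adjusted p = 0.0371).

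The other G2/M genes did not pass, and several sat near 0. Aurka, a centrosomal mitotic kinase, stood at -0.17 ± 0.02 (adjusted p = 0.0551). Its single arrays spread wider than this SD, from -0.38 to 0.03. Fitted by limma without the pairing by set, its adjusted p was 0.193. With the set as a random replicate block it was 0.0353, and with exact zeros kept as ratios 0.0376. Ccnb2, a B-type cyclin, had -0.15 ± 0.05 and the checkpoint kinase gene Bub1 -0.13 ± 0.01, each negative on all arrays (adjusted p = 0.0897 and 0.102). Cdk1 stood at -0.06 ± 0.01, with a 95% interval of -0.17 to 0.05. Bub3 stood at -0.05 ± 0.04. The remaining 5 lay between 0.00 and 0.05. They were Cdc16 and Cdc26, subunits of the anaphase-promoting complex, its activator Cdc20, the mitotic phosphatase gene Cdc25c and Aurkb, the kinase of the chromosomal passenger complex. Without set 1 or without set 3, none of these 4 falls passed limma's threshold, and 1, of Ccna2, did without set 2. With single arrays and a dye orientation term, Ccnf and Cdc25b did not pass (adjusted p = 0.14 and 0.0506), and Ccnf did not without the pairing by set either (0.199).

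The CDK inhibitors split, with 1 of 8 tested higher, 3 lower and 4 not past the threshold. Cdkn1a, the gene of p21, read 1.06, 0.52 and 0.65 with treated RNA in Cy5 and 0.68, 0.97 and 0.71 with it in Cy3. Every array was clearly positive, and the mean was 0.76 ± 0.10, a 1.70-fold rise (adjusted p = 0.000394). Its 3 probes had means of 1.07, 0.94 and 0.28. The probe at 0.28 ran from -0.21 to 0.86 between arrays. The probe at 1.07 ran only from 0.96 to 1.21.

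Cdkn2d, the gene of the INK4 protein p19, moved nearly as far in the other direction. It read -0.87, -0.64 and -0.74 with treated RNA in Cy5 and -0.75, -0.65 and -0.67 with it in Cy3. The mean was -0.72 ± 0.08, a 1.65-fold fall (adjusted p = 0.000395), and its 2 probes had means of -0.75 and -0.69. No array of Cdkn2d came near those of Cdkn1a. Cdkn2c, the gene of the INK4 protein p18, read -0.22, -0.30 and -0.34 in Cy5 and -0.27, -0.56 and -0.32 in Cy3. It was negative on every array, at -0.33 ± 0.09 (1.26-fold, adjusted p = 0.00889). A second Cdkn2c probe, with a value on 4 arrays, had a mean of -0.42.

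Cdkn1b, the gene of p27, had a mean of -0.32 ± 0.08 (adjusted p = 0.00893) but uneven arrays. It read -0.36, -0.93 and -0.33 with treated RNA in Cy5 and -0.30, 0.14 and -0.15 with it in Cy3. Set 2 again held both extremes. With single arrays and a dye orientation term the adjusted p was 0.0796. Cdkn1c, the third CIP/KIP gene, stood at -0.00 ± 0.25 and differed in sign between sets. Cdkn2a stood at 0.03 ± 0.10, Cdkn2b at -0.06 ± 0.08, and Cdkn3, a phosphatase gene that acts on CDK2, at 0.05 ± 0.07. Within the CIP/KIP family 1 gene rose and 1 fell, and within the INK4 family 2 of 4 fell.

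**Figure D2:**
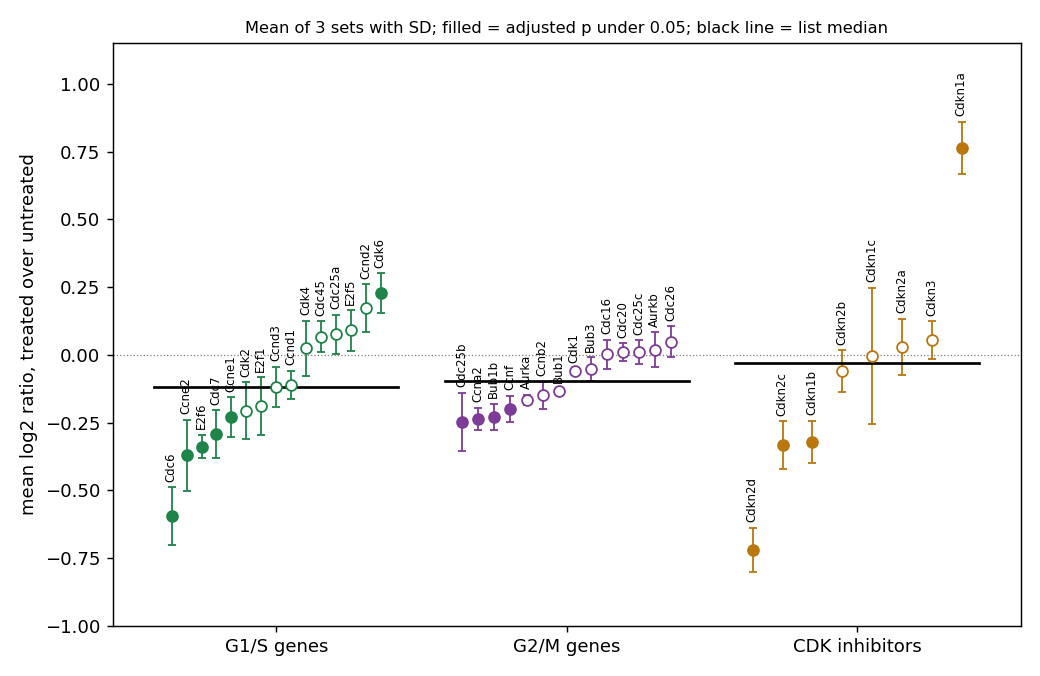
Mean log2 ratio of treated over untreated RNA (y axis) with the SD of the 3 sets for each tested G1/S gene (green), G2/M gene (purple) and CDK inhibitor gene (orange), filled where the adjusted p was under 0.05. The black lines are the medians at -0.12, -0.10 and -0.03, and the inhibitors span the widest range, from -0.72 to 0.76.

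The medians of G1/S and G2/M genes, -0.12 and -0.10, lay close together. The G1/S median was -0.06, -0.17 and -0.09 in sets 1 to 3, and the G2/M median -0.09, -0.11 and -0.08, so that the order of the lists changed between sets. The inhibitors had -0.04, -0.20 and -0.03. The share that fell was 33.3% of G1/S genes, 28.6% of G2/M genes and 37.5% of inhibitors, against the 7.45% of all features given above. The lists differed in range: the means of G1/S genes ran from -0.60 to 0.23, those of G2/M genes from -0.25 to 0.05 and those of inhibitors from -0.72 to 0.76. These are counts and medians, and no difference between the lists was tested. The lists were chosen with earlier results of these data known.

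Of 10 tested cyclins and CDKs of transcription, 1 rose (10%, near the 7.35% of all features) and 0 fell by limma. At an unadjusted p under 0.05, 0 were lower, against 1658 of all 11231 features, and most means were near 0. Ccnl1, which encodes cyclin L1 of the pre-mRNA splicing kinases, was the exception. It read 0.61, 0.57 and 0.38 with treated RNA in Cy5 and 0.49, 0.52 and 0.42 with it in Cy3. All 6 values were positive, at a mean of 0.50 ± 0.08 (1.41-fold, adjusted p = 0.00177). Its 2 probes had means of 0.48 and 0.52. Its relative Ccnl2 stood at -0.00 ± 0.03. The others lay between -0.10 (Cdc40, a splicing factor gene) and 0.08 (Ccnk). Among these were Cdk9 (0.05 ± 0.07), the elongation kinase, and Cdk7 with Ccnh (0.02 ± 0.11 and -0.00 ± 0.09). Cdk7 and Ccnh activate other CDKs and phosphorylate RNA polymerase II. Cdk7 stood at -0.25 with treated RNA in Cy5 and at 0.28 with it in Cy3. Ccnh stood at -0.16 and 0.15 and Cdk9 at 0.19 and -0.09, so these means near 0 say little.

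Of 3 Polo-like kinase genes tested, Plk2, Plk3 and Plk4, the first 2 rose (66.7%, against 7.35% of all features). Neither of these passed without set 3 or with exact zeros kept as ratios. Plk2, known as an immediate early gene, read 0.38, 0.15 and 0.39 with treated RNA in Cy5 and 0.48, 0.39 and 0.58 with it in Cy3. The mean was 0.40 ± 0.11 (1.32-fold, adjusted p = 0.00644). It averages a probe at 0.73, positive on all arrays, and a probe at 0.06, which ran from -0.13 to 0.34. Plk3, a stress-responsive kinase gene, read 0.48, 0.36 and 0.42 in Cy5 and 0.35, 0.15 and 0.45 in Cy3. It was positive on every array, at 0.37 ± 0.10 (adjusted p = 0.00717). Plk4, the kinase of centriole duplication, stood at 0.04 ± 0.01.

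**Figure D3:**
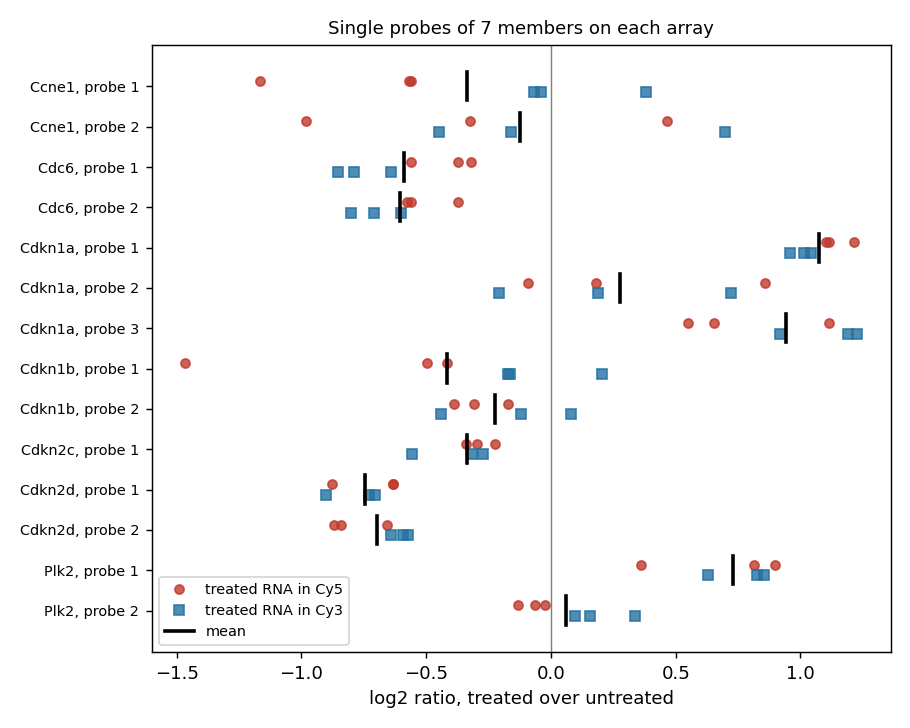
Log2 ratio of treated over untreated RNA (x axis) on each array for the single complete probes of Ccne1, Cdc6, Cdkn1a, Cdkn1b, Cdkn2c, Cdkn2d and Plk2, with red circles for treated RNA in Cy5, blue squares for Cy3 and black bars for means. The 2 probes of Cdc6 and of Cdkn2d lie together, while those of Plk2 (0.73 and 0.06) and 1 of the 3 of Cdkn1a lie apart.

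Of the other 21 tested members, 1 rose (4.76%) and 2 fell (9.52%), near the 7.35% and 7.45% of all features. Cdk20, the cell-cycle-related kinase that also acts at the cilium, read -0.39, -0.22 and -0.51 with treated RNA in Cy5 and -0.38, -0.67 and -0.44 with it in Cy3. It was negative on every array, at -0.44 ± 0.04 (1.35-fold, adjusted p = 0.0019). Ccng2, an atypical cyclin linked to growth arrest, read -0.47, -0.65 and -0.48 in Cy5 and -0.25, 0.02 and -0.25 in Cy3. The Cy5 arrays were the lower ones, and the mean was -0.35 ± 0.03 (1.27-fold, adjusted p = 0.004). Cdk18, a kinase of the PCTAIRE group, read 0.59, 0.45 and 0.23 in Cy5 and 0.47, 0.32 and 0.34 in Cy3. All 6 values were positive, for a 1.32-fold rise (mean 0.40 ± 0.12, adjusted p = 0.0072). Its relative Cdk16 stood at -0.00 ± 0.17, from a mean of -0.29 in Cy5 and 0.29 in Cy3. The 18 that did not pass lay between -0.12 (Ccna1, the cyclin A of germ cells) and 0.14 (Cdc37, a chaperone partner of kinases). Cdk3, a kinase gene of the CDK2 type with 1 probe, was not tested. It read 0.31 and -0.04 in Cy5 (sets 2 and 3) and -0.03, -0.40 and -0.33 in Cy3. Ccng1, the relative of Ccng2, had 3 complete probes and a mean of -0.03 ± 0.02.

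The dye orientation moved with several of these values. Across the 20 called members, 19 had means of the same sign in both orientations, and Ccne1 did not. Fitted on 3 arrays each, 7 of the 20 passed with treated RNA in Cy5 and 6 with it in Cy3. Those that passed in each were Cdkn1a, Cdkn2d, Cdc6 and Ccnl1. A direct limma test of the orientation found 1 of the 71 members, Cdk13, against 0.499% of all features. Cdk13, a transcriptional kinase gene, read 0.37, 0.46 and 0.46 with treated RNA in Cy5 and -0.49, -0.29 and -0.42 with it in Cy3, so that its mean of 0.02 says little. Other means near 0 also joined opposite signs, as for Cdc16 (-0.14 in Cy5 and 0.14 in Cy3) and Cdkn2b (-0.21 and 0.09). Among the 71 members, 38 had several complete probes, whose means differed by a median of 0.04 and at most 0.80, in Cdkn1a. A further 12 member probes had values on some arrays and 6 on none. The widest was a second Cdc37 probe, at -3.05 and 2.85 on the 2 arrays of set 1.

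**Figure D4:**
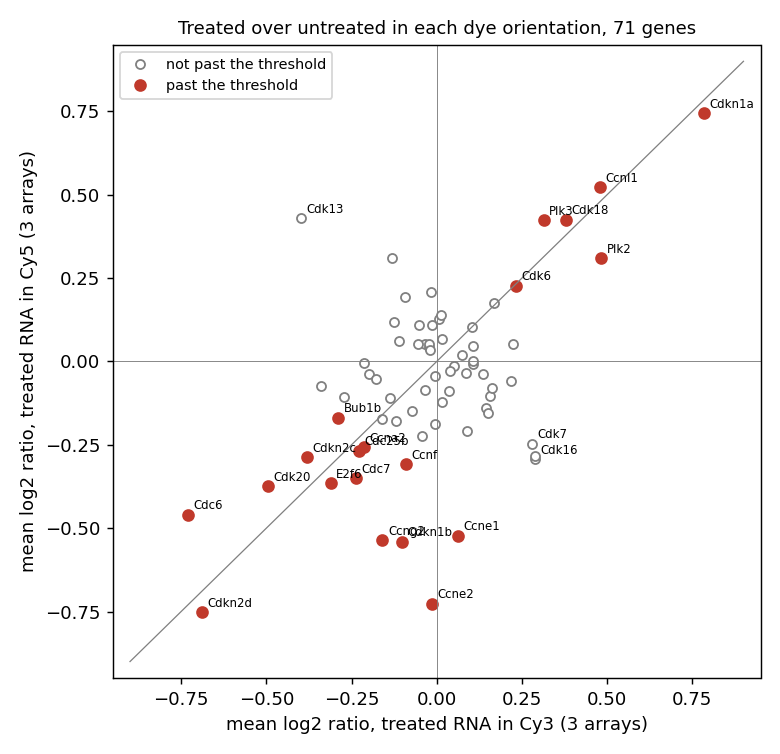
Mean log2 ratio of treated over untreated RNA over 3 arrays with treated RNA in Cy5 (y axis) and over 3 arrays with it in Cy3 (x axis), 1 point per tested member, filled where the adjusted p was under 0.05. Points on the diagonal read alike in both orientations, while Ccne1 (-0.52 and 0.06), Ccne2 (-0.73 and -0.02) and Cdk13 (0.43 and -0.40) lie far off it.

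Among the listed genes that work with these members, more fell than rose. This list was chosen with earlier results of these data known. Of 42 partner genes listed, 32 were tested. Of these, 14 fell (43.8%, against 7.45% of all features), 3 rose (9.38%, against 7.35%) and 15 did not pass. Without set 3, 4 fell and 2 rose, when 1.88% of all features fell and 3.13% rose. Without set 1, 9 fell and 1 rose, when 4.31% of all features fell and 5.09% rose. Gmnn, which encodes the licensing inhibitor geminin, fell 1.48-fold (-0.57 ± 0.11, adjusted p = 0.00155). The checkpoint kinase gene Chek2 fell 1.47-fold (-0.56 ± 0.05, adjusted p = 0.000732). The pocket protein genes Rbl2 (-0.55 ± 0.05) and Rbl1 (-0.49 ± 0.07), whose products hold E2F factors in check, fell by 1.46-fold and 1.40-fold, whereas Rb1 stood at -0.11 ± 0.15 (adjusted p = 0.347). Wee1, Ttk, Fbxo5, Atm, Chek1, Foxm1, Incenp, Skp2, Mybl2 and Mad2l1 fell by 1.29-fold or less. Of the 14 that fell, 12 were negative on all arrays, and Chek1 and Incenp were not. Chek1 ran from -1.29 to 0.54, again with both extremes in set 2.

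The partner genes that rose were Mdm2, the ubiquitin ligase gene of p53 (0.60 ± 0.09, 1.51-fold, adjusted p = 0.000876), Pttg1, which encodes securin (0.38 ± 0.12, 1.31-fold, adjusted p = 0.00813), and Cks2, a CDK-binding subunit gene (0.24 ± 0.09, 1.18-fold, adjusted p = 0.0288). Each was positive on all arrays. The proliferation marker gene Mki67 stood at -0.12 ± 0.07 (adjusted p = 0.174). Birc5, the gene of survivin, stood at -0.01 ± 0.02. It was negative on every array with treated RNA in Cy5 (mean -0.16) and positive on every swapped one (mean 0.14), so this mean says little. In the RNA of a whole culture, a change in the share of cells in a phase and a change in RNA per cell cannot be told apart.

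**Figure D5:**
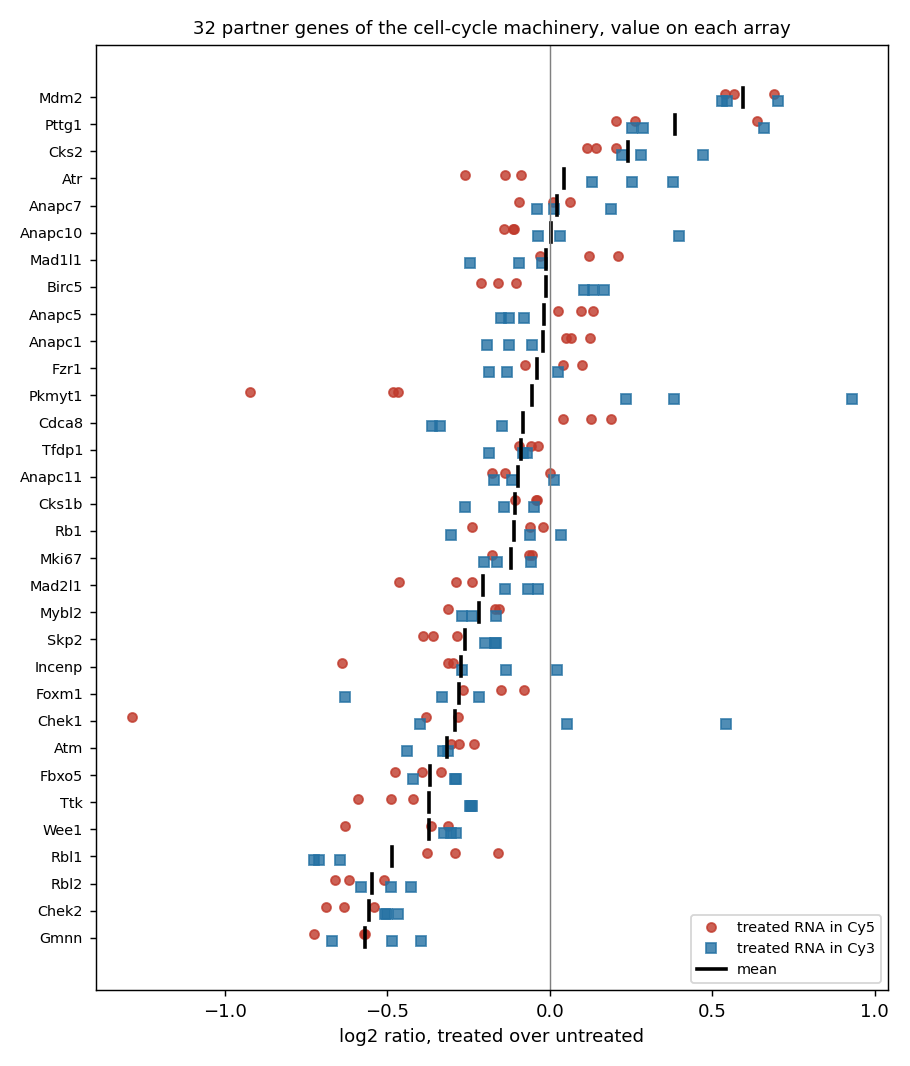
Log2 ratio of treated over untreated RNA (x axis) on each array for the 32 tested partner genes, ordered by their mean (black bar), with red circles for treated RNA in Cy5 and blue squares for Cy3. Mdm2 at 0.60 and Gmnn at -0.57 mark the ends, and Chek1 and Pkmyt1 spread widest between arrays.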

How the data were processed

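The deposited table gives 1 log2 ratio per probe and array. The base was inferred from the values. The direction, Cy5 over Cy3, was inferred too, since no source used here states it, and was checked on 10 LPS-induced genes. How the authors normalized the dyes or corrected the background is not given in the sources used here. Spot intensities were not used, and precision is limited by the small number of arrays. Exact zeros (9.12% to 12.4% of each array) were treated as missing. Array medians lay between -0.02 and 0.01. Platform annotation named 13738 probes with 1 symbol, 52 with several and 2491 with none.

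Ratios with treated RNA in Cy3 were multiplied by -1. Probes on all 6 arrays (13224) were averaged per gene, which gave 11231 features (9472 named genes, 1759 probes without a single symbol). Arrays of a set were averaged, and limma 3.58.1 (R 4.3.3) tested whether the mean of the 3 sets differed from 0 (two-sided, Benjamini-Hochberg over all features, threshold 0.05). Pairing by set number came from the labels: deviations of same-numbered arrays, before turning, correlated with r of 0.40, 0.43 and 0.14. After turning, deviations shared in this way have opposite signs and cancel in the set means. The SDs of the sets and the p-values leave out the part that cancels. The code was tested on simulated data. A dye orientation term was fitted to the single arrays.

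The members and gene lists were chosen with earlier results of these data known. All members past the threshold are named, as are all tested G1/S, G2/M and inhibitor genes. Of the remaining members, the extremes and some relatives of called genes, chosen after their values were seen, are named. RefSeq promoter windows were searched with Python 3.11.15. Alternatives varied the pairing, the dye orientation, the sets used, centring, scaling, missing values and the probe summary.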

Additional observations from a re-analysis of the deposited data

Results flagged for a closer look

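Cdk13 differed between the dye orientations. Its ratio was 0.83 higher on the log2 scale on the arrays with treated RNA in Cy5 (mean 0.43, 3 of 3 arrays positive) than on those with it in Cy3 (mean -0.40, 3 of 3 negative). The limma orientation term had an adjusted p of 0.0424. It is the value of 1 probe.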

How the results depend on the processing

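The counts of members that rose (6) or fell (14) depended on the arrays used. Leaving out 1 set gave 3 to 6 higher and 3 to 11 lower. Of all features, 3.13% to 7.6% were then higher and 1.88% to 7.4% lower. With only the arrays with treated RNA in Cy5, 4 were lower, and the G2/M median moved to -0.15. With only those in Cy3, 3 were higher and 3 lower, the G2/M median was -0.0396, and Ccne1 changed sign to 0.0612 (adjusted p = 0.842). Of all features, 3.09% were higher and 2.6% lower in Cy5 alone, and 3.63% and 2.2% in Cy3 alone. With exact zeros kept, 2 members were higher and 8 lower, and the G2/M median was -0.0674. In that setting 3.72% of all features were higher and 3.55% lower. The causes were not tested. The G1/S and inhibitor medians moved by less than the SD of the sets in every alternative run for them. Single arrays with the set as a random replicate block gave 8 higher and 18 lower (consensus correlation -0.44), and without a replicate block 6 and 10. Of all features, 9.7% were higher and 10.6% lower with this block, and 6.14% and 6.11% without it. The settings with a dye orientation term, added after seeing the data, gave 7 higher and 13 lower without a block and 7 and 14 with it. Cdk2, E2f1, Ccnd2, Ccnb2 and Bub1, not past the threshold above, passed in both of these. Of all features, 8.08% were higher and 8.52% lower without the block, and 8.39% and 8.82% with it. The orientation test, passed by 1 member (Cdk13), was passed by 0 by limma when any 1 set was left out. Over the 20 called members and 14 settings, 78 of 280 values missed the threshold in the same direction or, for Ccne1 in Cy3, the opposite one.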

Other observations

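Cdkn1a, Mdm2, Ccng1, Plk2 and Plk3 are known as targets of p53. This group was put together after its values were seen, so its values cannot serve as a test. A role of p53 was not tested. The means were 0.76 for Cdkn1a, 0.60 for Mdm2, 0.40 for Plk2 and 0.37 for Plk3, all past the threshold, and -0.03 for Ccng1 (adjusted p = 0.757). All 3 Ccng1 probes were measured on every array, and the gene's mean ran from -0.14 to 0.07 between arrays.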
